A study of Saccharomyces cerevisiae with 12 samples.

Results

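RNA levels were compared between yeast that lack the catalytic subunit of the NuA4 histone acetyltransferase, in the 3 libraries labelled esa1Δ sds3Δ, and yeast that lack its scaffold subunit, in the 3 labelled epl1Δ sds3Δ. These are 6 of the 12 libraries of the series. Features were kept by their level alone, a mean of at least 1 RPKM (reads scaled for the length of the gene and the size of the library) over the 12 libraries, which left 5956 of 7126. The pair of groups bears on whether losing either subunit, in strains also labelled sds3Δ, leaves the cell with a similar transcriptome.

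NuA4 acetylates histones H4 and H2A, and in budding yeast both ESA1 and EPL1 are essential. Esa1 is the acetyltransferase itself. Epl1, named for its likeness to Enhancer of Polycomb, holds Esa1 in the small piccolo form of the complex and links that form to the larger NuA4 assembly. Sds3 belongs to the Rpd3L histone deacetylase, which acts against such acetylation, and deleting SDS3 bypasses the need for Esa1 and Epl1.

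All strains were Saccharomyces cerevisiae of the W303 background and mating type MATα, grown at 24 °C in synthetic complete medium to mid-log phase. The first group carried epl1Δ::kanMX with sds3Δ::natMX, and the second carried esa1Δ::HIS3 with sds3Δ::natMX. A further group, labelled esa1Δ epl1Δ sds3Δ, carried the HIS3, kanMX and natMX replacements together. The wild type is given with the alleles ade2-1, can1-100 and his3-11, a leu2 allele, and trp1-1 and ura3-1. Each group had 3 biological replicates, and the labels give 1 genotype and no separate isolates per group, so an effect of the genotype and a difference that 1 strain happens to carry cannot be told apart. Each deletion also comes with its own marker, HIS3 for ESA1 and kanMX for EPL1. An effect of the marker therefore cannot be told apart from that of the deletion. No libraries labelled sds3Δ alone were analysed here.

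The 6 libraries compared held 8089179 to 10314855 reads, recovered from the deposited values, so that a single read over 1 kb of gene equals 0.0969 to 0.124 RPKM. SDS3 was at 5.50, 4.80 and 5.50 RPKM in the epl1Δ sds3Δ libraries and at 4.96, 5.35 and 6.67 in the esa1Δ sds3Δ libraries, against 8.94, 8.50 and 9.35 in wild type. Since SDS3 is not near 0 in any library labelled sds3Δ, groups are called here by their labels. Of the α-mating-type markers, STE3, the receptor for a-factor, was at 62.6 to 66.7 RPKM in the first group and 61.3 to 70.7 in the second. STE2, the receptor found on MATa cells, was between 1.12 and 1.99 RPKM in the same 6 libraries.

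The libraries of these mutant groups lay about as far from each other as from their own replicates. The distance between 2 libraries was taken as the median absolute log2 difference over the tested features. It ran from 0.146 to 0.174 within the epl1Δ sds3Δ libraries and from 0.127 to 0.148 within the esa1Δ sds3Δ libraries. Across the 9 pairs that join both groups it ran from 0.124 to 0.181, with a median of 0.144. The ranges overlapped, and 2 of the 9 pairs, both with replicate 3 of esa1Δ sds3Δ, were farther apart than any pair of replicates of either group. Wild-type libraries were 0.433 to 0.509 from the first group and 0.427 to 0.495 from the second, outside the range of any pair of mutant libraries of these groups.

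**Figure D1:**
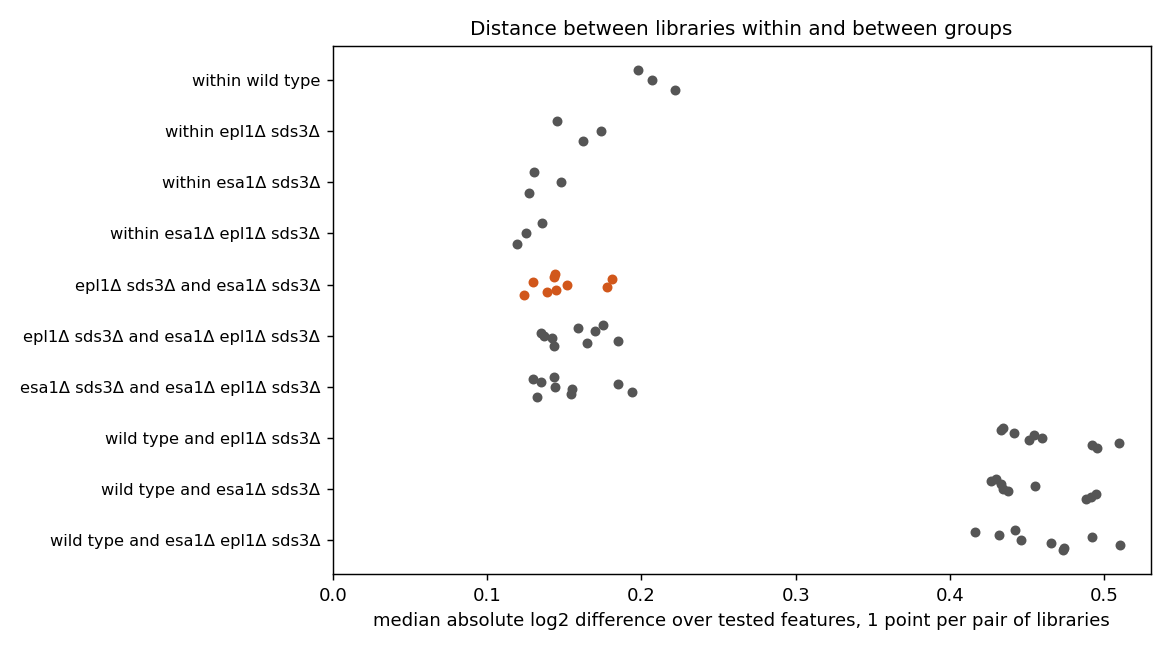
Distance between pairs of libraries, as the median absolute log2 difference over 5956 features (x axis), for pairs within a group and pairs between groups (y axis); each point is 1 pair. The 9 pairs joining epl1Δ sds3Δ and esa1Δ sds3Δ, in orange, lie between 0.124 and 0.181 and overlap the pairs of replicates, and pairs with wild type lie above 0.4.

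Gene by gene, 11 of the 5956 features differed between the groups (0.185%) at an adjusted p under 0.05 in limma with Benjamini-Hochberg adjustment. Of these, 7 were higher in the esa1Δ sds3Δ libraries (0.118% of those tested) and 4 were lower (0.0672%). The same fit called 3577 features (60.1%) between epl1Δ sds3Δ and wild type and 3554 (59.7%) between esa1Δ sds3Δ and wild type, 2 comparisons that share the wild-type libraries. Over all tested features the absolute difference between the mutant groups had a median of 0.09 on the log2(RPKM + 1) scale and a 95th percentile of 0.38. Its 99th percentile was 0.78. The 95% interval of the difference lay within 1 log2 unit of 0 for 5685 features (95.4%), and within 0.5 for 4392 (73.7%). At low levels the intervals were wider: their median half-width was 0.34 for features with a mean of 1 to 10 RPKM and 0.26 for those of 10 to 100.

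**Figure D2:**
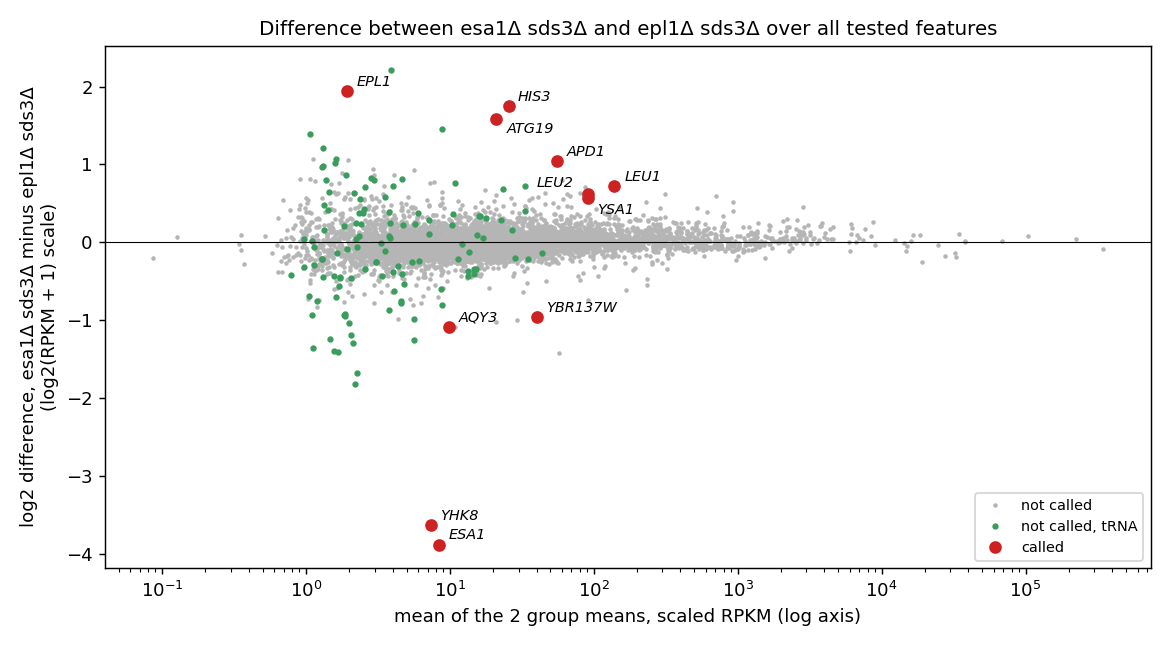
Log2 difference, esa1Δ sds3Δ minus epl1Δ sds3Δ (y axis, log2(RPKM + 1) scale), against the mean of both group means in scaled RPKM (x axis, log axis), 1 point per tested feature. The 11 called genes are in red with their names, and tRNA features, in green, fill much of the low-level spread.

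The genes named in the labels came first. ESA1 (YOR244W, XV 792531 to 793868, + strand, R64 assembly) had 228, 188 and 158 reads in the epl1Δ sds3Δ libraries and 2, 2 and 3 in the esa1Δ sds3Δ libraries. Its log2 difference was -3.87 (SE 0.13, limma's adjusted p 1.98e-09). EPL1 (YFL024C, VI 87847 to 90345, - strand) had 5, 4 and 4 reads in the first group and 106, 62 and 68 in the second, a difference of 1.94 (SE 0.21, limma's adjusted p 0.000688). Each deleted gene was thus near 0 in its own group, and the groups did not overlap. The genes beside them were not called: PUS7 and DGA1, which flank ESA1, differed by -0.11 and -0.24, and BST1 and BUD27, which flank EPL1, by -0.27 and -0.24. Among the 13 tested NuA4 subunit genes ESA1 and EPL1 were the called members, and the list's median was -0.03 beside -0.00 for all features tested.

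HIS3, the histidine synthesis gene that served as the marker at the ESA1 locus, was at 9.06, 13.0 and 11.8 RPKM in the epl1Δ sds3Δ libraries. In the esa1Δ sds3Δ libraries it was at 39.4, 38.8 and 41.5, and in those of the triple label at 36.8, 43.2 and 42.5. Every library with the HIS3 replacement was above every library without it. The difference between the first 2 groups was 1.75 (SE 0.17, limma's adjusted p 0.000369). Reads of the marker and of the resident his3 allele cannot be told apart in a value per gene. The genes beside the resident locus, MRM1 and DED1, were at 15.2 ± 1.40 and 296 ± 29.7 RPKM in the first group and 14.0 ± 1.32 and 287 ± 9.41 in the second (SD, n = 3).

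**Figure D3:**
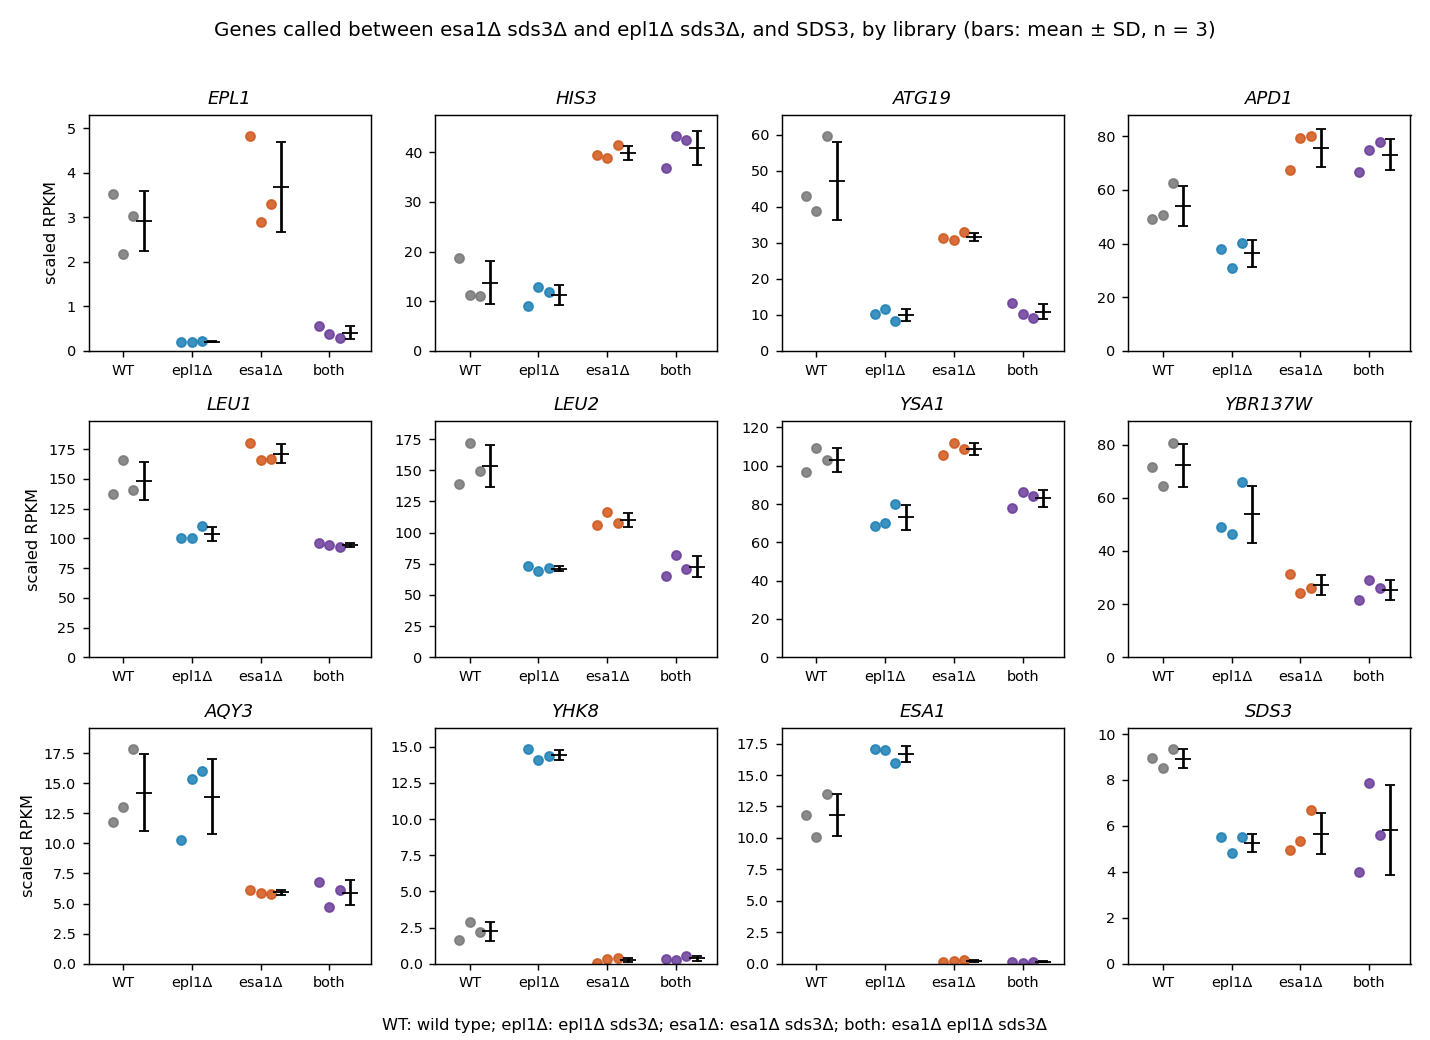
Scaled RPKM (y axis, from 0) of the 11 called genes and of SDS3 in each of 12 libraries, by group (x axis); points are libraries and bars are the mean ± SD of 3. ATG19, LEU1 and LEU2 in the triple-label libraries lie with epl1Δ sds3Δ, while APD1, YBR137W, AQY3 and YHK8 lie with esa1Δ sds3Δ.

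Apart from ESA1, EPL1 and HIS3, 8 genes were called. The one with the widest gap was YHK8 (YHR048W, VIII 204607 to 206151, + strand), a presumed drug transporter of the plasma membrane. It was at 14.8, 14.1 and 14.4 RPKM in the epl1Δ sds3Δ libraries and at 0.0735, 0.303 and 0.394 in the esa1Δ sds3Δ libraries, where it rested on 1, 4 and 5 reads. Wild type was at 1.60, 2.90 and 2.19, and the triple label at 0.354, 0.232 and 0.556. The epl1Δ sds3Δ libraries thus stood above the other 9, including those that lacked EPL1 together with ESA1. The difference between the mutant groups was -3.63 (SE 0.18, limma's adjusted p 1.93e-07). YHK8 differed from wild type by 2.28 in the first group and by -1.35 in the second, both called. Its neighbours AAP1 and FSH1 were at 20.1 ± 1.03 and 102 ± 14.7 RPKM in the first group and at 19.7 ± 0.151 and 96.0 ± 11.9 in the second (SD, n = 3).

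ATG19 (YOL082W, XV 168727 to 169974, + strand) encodes the receptor that carries aminopeptidase I to the vacuole in the cytoplasm-to-vacuole targeting pathway. It was at 10.1, 11.5 and 8.23 RPKM in the epl1Δ sds3Δ libraries. In the esa1Δ sds3Δ libraries it was at 31.3, 30.8 and 32.9, which is 3.18 times the first mean, a difference of 1.59 (SE 0.16, limma's adjusted p 0.000435). The triple-label libraries were at 13.2, 10.2 and 9.23, and wild type at 43.0, 38.9 and 59.6. All 6 libraries without EPL1, which are also those with the kanMX replacement, were below all 6 that kept EPL1. The triple label differed from esa1Δ sds3Δ by -1.47 (limma's adjusted p 0.00200) and from epl1Δ sds3Δ by 0.11 (0.927). ATG34, the paralogue of ATG19 that lies beside it, was at 5.96 ± 1.03 and 7.02 ± 1.06 RPKM in the epl1Δ sds3Δ and esa1Δ sds3Δ groups and was not called.

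Of the called genes, 3 lay on chromosome XV (ESA1, HIS3 and ATG19) and 3 on chromosome II, between 461178 and 545978. APD1 (YBR151W, 545028 to 545978), needed for the normal placing of actin patches, was at 37.9, 30.8 and 40.2 RPKM in the epl1Δ sds3Δ libraries. It was between 67.4 and 79.9 in the 3 esa1Δ sds3Δ libraries, with a mean of 75.5 ± 7.08 (SD, n = 3), a difference of 1.04 (SE 0.13, limma's adjusted p 0.00193), and at 66.7, 74.8 and 77.6 in the triple label. Wild type lay between, at 49.1, 50.4 and 62.6.

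YBR137W (513044 to 513583) went the other way. It was at 49.1, 46.2 and 66.1 RPKM in the first group and 31.3, 24.0 and 25.9 in the second, a difference of -0.96 (SE 0.15, limma's adjusted p 0.0226). The triple label was at 21.5, 29.0 and 26.0, level with esa1Δ sds3Δ and below the epl1Δ sds3Δ libraries. This call was lost without replicate 1 or 3 of epl1Δ sds3Δ (adjusted p 0.0595 and 0.10) and without replicate 2 or 3 of esa1Δ sds3Δ (0.173 and 0.125), and in a fit of the 6 libraries alone (0.0627).

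YSA1 (YBR111C, 461178 to 461873, - strand), a Nudix hydrolase that splits ADP-ribose, was at 68.5, 70.3 and 80.2 RPKM in the first group and 105, 112 and 109 in the second. The difference was 0.57 (SE 0.09, limma's adjusted p 0.0226), and the triple label, at 78.1, 86.3 and 84.5, lay nearer to epl1Δ sds3Δ. The call was lost in the 6-library fit (0.0510). It was also lost without replicate 1 or 2 of epl1Δ sds3Δ (adjusted p 0.135 and 0.173) and without replicate 1, 2 or 3 of esa1Δ sds3Δ (0.0892, 0.173 and 0.125). The nearest genes on either side of APD1, YBR137W and YSA1 were not called, and the median difference over the 390 tested features of chromosome II was -0.01.

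AQY3 (YFL054C, VI 20847 to 22787, - strand), which resembles the channels for water and glycerol, was at 10.3, 15.3 and 16.0 RPKM in the epl1Δ sds3Δ libraries and at 11.8, 13.0 and 17.8 in wild type. In the esa1Δ sds3Δ libraries it was at 6.14, 5.90 and 5.76, and in the triple label at 6.77, 4.74 and 6.15. The 6 libraries without ESA1, which are also those with the HIS3 replacement, were all below the 6 that kept ESA1. The difference between the first pair of groups was -1.08 (SE 0.18, limma's adjusted p 0.0226). It was not called without replicate 2 or 3 of epl1Δ sds3Δ (adjusted p 0.177 and 0.129) or without replicate 1, 2 or 3 of esa1Δ sds3Δ (0.104, 0.158 and 0.125).

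The remaining called genes, LEU1 and LEU2, encode consecutive enzymes of leucine synthesis. Leu1 is the isopropylmalate isomerase and Leu2 the dehydrogenase that follows it. The wild type carries a leu2 allele, and the level of LEU2 RNA does not show whether the enzyme works. Both genes are textbook targets of the regulator Leu3, which binds a pair of CCGG blocks and activates when the pathway's intermediate isopropylmalate builds up. The promoters of the tested genes, 250 bases before to 50 after the annotated start in the R64 assembly, were searched for a pair of CCGG 2 bases apart. This motif was added after the called genes were known. The 70 bases around it are shown, sense strand, 5′ to 3′, for the 3 genes of leucine and branched-chain synthesis that hold it, with the motif and the bases inside it in capitals.
LEU1, chrVII:478830-478899, - strand: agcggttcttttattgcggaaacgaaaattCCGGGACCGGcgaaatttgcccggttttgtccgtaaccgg
LEU2, chrIII:91096-91165, + strand: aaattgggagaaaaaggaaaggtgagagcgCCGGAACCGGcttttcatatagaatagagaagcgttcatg
BAT1, chrVIII:517355-517424, + strand: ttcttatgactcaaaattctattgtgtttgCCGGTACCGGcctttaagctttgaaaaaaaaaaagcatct

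The motif begins 217, 198 and 147 bases before the start of LEU1, LEU2 and BAT1. It was in 8 of 5516 tested promoters (0.145%), and 3 of those were among the 16 branched-chain genes. Since the motif was chosen after LEU1 and LEU2 were called, these counts are a description. The other promoters with the pair, those of BRO1, DRE2, FSF1, GAT1 and NPA3, belong to genes whose differences ran from -0.02 to 0.26, none of them called.

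LEU1 (YGL009C) was at 100.2, 100.0 and 111 RPKM in the epl1Δ sds3Δ libraries and at 180, 166 and 166 in the esa1Δ sds3Δ libraries. The difference was 0.72 (SE 0.09, limma's adjusted p 0.00355). The triple label was at 95.8, 94.1 and 92.8, and differed from esa1Δ sds3Δ by -0.85 (limma's adjusted p 0.00200) and from epl1Δ sds3Δ by -0.13 (0.867). Wild type, at 137, 166 and 141, lay between these mutant groups, its highest library close to the lowest 2 of esa1Δ sds3Δ.

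LEU2 (YCL018W) was at 72.9, 69.0 and 71.4 RPKM in the first group and 106, 117 and 107 in the second, a difference of 0.62 (SE 0.11, limma's adjusted p 0.0308). The triple label was at 65.3, 81.7 and 71.1 and wild type at 139, 172 and 149. This call was lost when any 1 of the 6 libraries was left out: the adjusted p was 0.134, 0.209 and 0.128 without replicate 1, 2 or 3 of epl1Δ sds3Δ and 0.121, 0.255 and 0.125 without the same replicates of esa1Δ sds3Δ.

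Of the 16 branched-chain genes, 2 were called, both higher in esa1Δ sds3Δ, and 6 had groups that did not overlap, against 10.4% of all features. BAT1, the mitochondrial branched-chain aminotransferase, was at 114, 118 and 145 RPKM in the epl1Δ sds3Δ libraries and 160, 174 and 181 in the esa1Δ sds3Δ libraries. It was at 107, 111 and 114 in the triple label. Its difference of 0.45 (limma's adjusted p 0.632) was not called. OAC1, a mitochondrial carrier of oxaloacetate and isopropylmalate, was at 32.5, 33.5 and 32.0 RPKM against 48.2, 48.8 and 51.4, and at 28.5, 28.3 and 25.5 in the triple label. At 0.58, OAC1 was not called in the fit of 12 libraries (limma's adjusted p 0.549) and was called in a fit of the 6 libraries alone (0.0176). In all 4 of these genes the esa1Δ sds3Δ libraries were above both other mutant groups. ILV3 and BAT2, the dihydroxyacid dehydratase and the cytosolic aminotransferase, differed by 0.29 and 0.33. ILV1, ILV2 and ILV5, earlier enzymes of isoleucine and valine synthesis, differed by -0.06, 0.09 and 0.08, and LEU4, the first enzyme of the leucine branch, by 0.12. LEU3, the regulator, was at 8.02, 9.15 and 8.33 RPKM in the first group and 8.92, 7.95 and 7.86 in the second. The median over the 16 genes was 0.11, and 0.06 and 0.16 without replicate 2 or 3 of epl1Δ sds3Δ.

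The purine synthesis genes had the lowest median of the 60 gene lists examined, -0.36 over 20 tested genes beside -0.00 over all features. Against wild type the list's median was -0.35 in epl1Δ sds3Δ, -0.68 in esa1Δ sds3Δ and -0.69 in the triple label. In yeast most steps from phosphoribosyl pyrophosphate to inosine monophosphate and on to adenine nucleotides are encoded by ADE genes, which Bas1 and Pho2 activate and which are repressed when adenine is plentiful. None of the 20 was called, where 0.185% of all features were. Of the 20, 9 had an unadjusted p under 0.05, against 4.73% of all features, and 19 were below 0, against 3035 of 5956. In 12 of the 20 the groups did not overlap, against 10.4% of all features.

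ADE17, one of 2 enzymes for the last steps to inosine monophosphate, was at 105, 69.4 and 76.2 RPKM in the epl1Δ sds3Δ libraries. In the esa1Δ sds3Δ libraries it was at 28.4, 31.2 and 31.1, and in the triple label at 37.6, 43.1 and 37.8. The difference was -1.41 (95% interval -2.11 to -0.72, limma's adjusted p 0.241). ADE16, the other enzyme for the same steps, was at 78.2, 77.5 and 82.2 RPKM against 75.2, 83.4 and 83.0, with an interval of -0.17 to 0.21. The paralogues thus had intervals that did not overlap, although the difference between them was not tested.

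ADE1, the enzyme joining aspartate to the purine ring precursor, was at 42.1, 37.9 and 38.9 RPKM in the first group and at 19.7, 20.1 and 18.1 in the second. ADE13, adenylosuccinate lyase, was at 122, 103 and 117 against 65.5, 68.4 and 69.0. MTD1, a cytosolic methylenetetrahydrofolate dehydrogenase, was at 35.3, 27.7 and 22.5 against 14.5, 10.9 and 14.6. For these 3 genes too the groups did not overlap, and the triple label was between them, at 24.3 ± 1.11, 74.0 ± 2.88 and 19.3 ± 1.18 RPKM (SD, n = 3) for ADE1, ADE13 and MTD1.

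Wild-type libraries differed widely at these genes and entered the estimate of the spread: ADE17 was at 287, 100.0 and 93.0 RPKM and ADE1 at 147, 53.1 and 46.1, with replicate 1 the highest for both. In a fit of the 6 libraries alone ADE17, ADE1 and ADE13 were called (limma's adjusted p 0.00706, 0.00170 and 0.0136), and ADE17 was also called by voom on recovered reads (0.0220). ADE2 carries the ade2-1 allele in the wild type. It was at 11.2, 7.13 and 6.46 RPKM in the epl1Δ sds3Δ libraries and at 3.71, 4.57 and 4.61 in the esa1Δ sds3Δ libraries, and was not called in any fit.

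**Figure D4:**
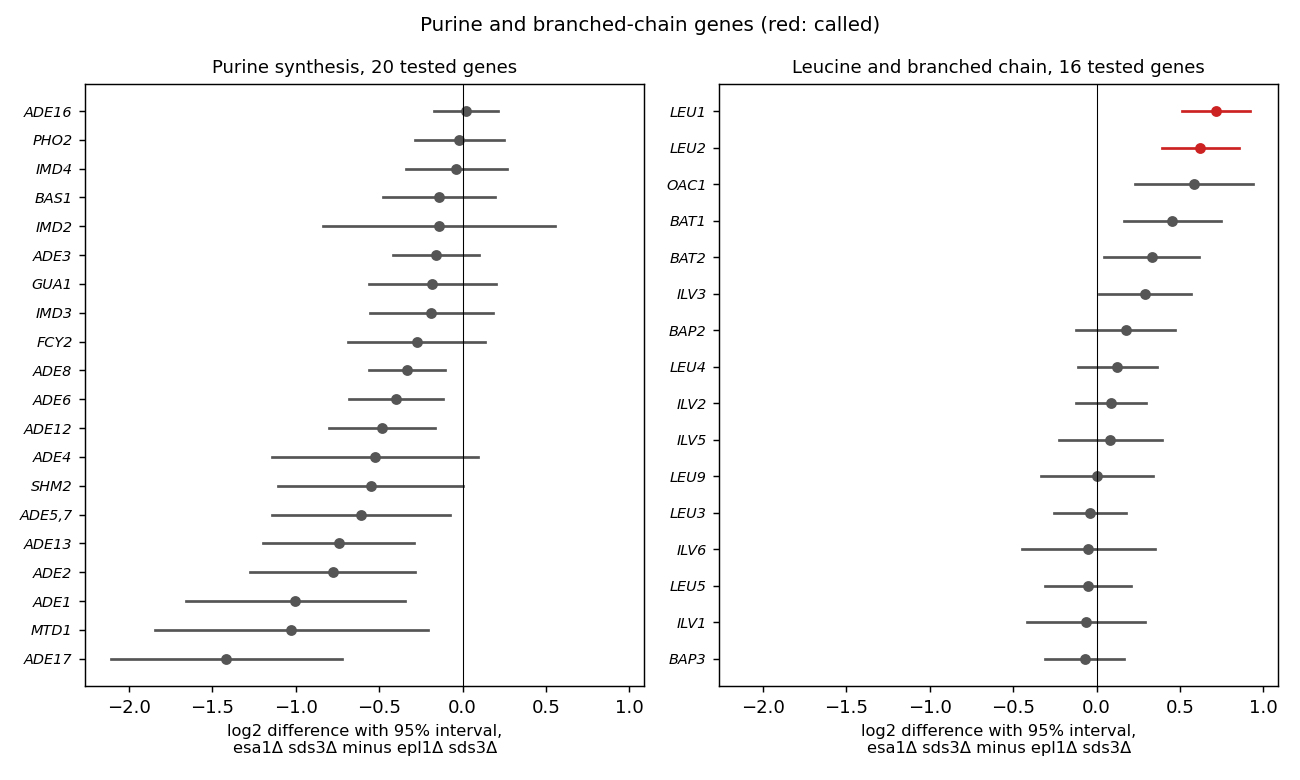
Log2 difference, esa1Δ sds3Δ minus epl1Δ sds3Δ, with its 95% interval (x axis), for 20 tested purine synthesis genes (left) and 16 branched-chain genes (right), 1 gene per row. Called genes are in red: LEU1 and LEU2 stand at 0.72 and 0.62, and ADE17, not called, stands at -1.41.

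In the branch to guanine nucleotides, IMD2, IMD3 and IMD4, which encode IMP dehydrogenases, differed by -0.14, -0.19 and -0.04, and GUA1, GMP synthase, by -0.18. IMD2 was at a mean of only 1.94 and 1.74 RPKM in these groups, with an interval of -0.84 to 0.55. Differences between genes of the list were not tested. BAS1 and PHO2, the regulators, were at -0.14 and -0.02. The hexamer TGACTC, which Bas1 and Gcn4 recognise, was found on either strand in 462 of 5516 tested promoters (8.38%) and in 10 of the 20 purine promoters. The stretch around it is shown for the 5 purine genes that differed most, all of which hold it, sense strand, with the hexamer or its reverse complement in capitals. ADE1 and ADE2 hold it at 2 places, and the one nearer the start is in capitals.
ADE17, chrXIII:509422-509487, - strand: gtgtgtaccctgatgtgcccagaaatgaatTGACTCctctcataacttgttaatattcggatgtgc
MTD1, chrXI:590191-590256, + strand: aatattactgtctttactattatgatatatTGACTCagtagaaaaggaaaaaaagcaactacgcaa
ADE1, chrI:169128-169193, + strand: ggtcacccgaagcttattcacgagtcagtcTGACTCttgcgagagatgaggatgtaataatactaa
ADE2, chrXV:566309-566374, - strand: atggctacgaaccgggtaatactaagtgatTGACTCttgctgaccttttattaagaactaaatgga
ADE13, chrXII:844036-844101, + strand: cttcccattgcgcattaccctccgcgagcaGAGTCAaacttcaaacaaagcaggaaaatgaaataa

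The same hexamer was in 8 of the 16 branched-chain promoters, where the differences ran from -0.06 to 0.45, and in HIS3 and EPL1 among the called genes. Methionine and sulphur genes held it in 11 of 36 promoters, and their median difference was -0.03.

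Among the other nutrient lists, glycine and one-carbon genes had a median of -0.11, with 11 of 14 below 0 and none called, and some of them are also in the purine list. GCV1, a subunit of glycine decarboxylase, was at 10.4, 9.87 and 11.1 RPKM in the epl1Δ sds3Δ libraries and at 6.23, 5.25 and 6.67 in the esa1Δ sds3Δ libraries. Vitamin B1 and B6 genes had a median of -0.08, with 6 of 17 above 0 and none called. SNZ1 and SNO1, a divergent gene pair of vitamin B6 synthesis, had means of 52.9 ± 6.44 and 39.8 ± 6.89 RPKM in the first group and 27.7 ± 2.15 and 25.0 ± 2.99 in the second (SD, n = 3). SNZ1 was called in the 6-library fit alone (limma's adjusted p 0.0139). The list of histidine, tryptophan and aromatic amino acid genes had a median of -0.03, with 7 of 22 above 0 and HIS3 called. HIS5, an aminotransferase of histidine synthesis, was at 54.8, 53.5 and 55.9 RPKM against 36.7, 37.9 and 40.9, and its adjusted p of 0.124 from limma was the smallest of the genes not called, shared with SPS100. HIS5 was called by voom on recovered reads (adjusted p 0.0416), and SPS100 with a pseudocount of 5 (0.0322).

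General stress genes, which Msn2 and Msn4 activate through AGGGG elements, had the highest median of the lists, 0.26 over 36 tested genes. Of the 36, 34 were above 0, against 2921 of 5956 features, none was called, and 4 had an unadjusted p under 0.05, against 4.73% of all features. The median moved when single libraries were left out: it was 0.11 without replicate 1 of epl1Δ sds3Δ and 0.40 without replicate 3. On the log2(RPKM + 1) scale the mean level of these genes rose from replicate 1 to 3 in both groups. It went from 5.95 to 6.60 in epl1Δ sds3Δ and from 6.50 to 6.80 in esa1Δ sds3Δ. Whether this rise has a part in the moved medians was not tested. The replicates were spread widely: RTC3 was at 292, 463 and 599 RPKM in the epl1Δ sds3Δ libraries and 550, 570 and 649 in the esa1Δ sds3Δ libraries. SPI1, a cell wall protein of stationary phase, was at 199, 229 and 320 against 331, 347 and 462, a difference of 0.62 (95% interval 0.07 to 1.17). For 10 of the 36 genes the groups did not overlap, against 10.4% of all features. The interval lay within 0.5 log2 units of 0 for 2 of the 36, against 73.7% of all features. AGGGG, searched on either strand, was in 23 of the 36 promoters and in 1223 of 5516 overall (22.2%).

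Heat shock and chaperone genes had a median of 0.13 over 30 tested genes, with none called. The small heat shock protein gene HSP26 was at 458, 534 and 703 RPKM in the first group and 744, 799 and 993 in the second. GRE1 and SIP18, a related pair of hydrophilins induced by water loss, were at 66.1 ± 12.9 and 44.0 ± 10.4 RPKM in the first group. They were at 107 ± 6.72 and 76.4 ± 13.2 in the second (SD, n = 3), with differences of 0.71 and 0.79 and adjusted p values from limma of 0.215 and 0.280. GRE1 was called by voom on recovered reads (adjusted p 0.0232) and SIP18 was not (0.0823). Oxidative stress genes had a median of 0.13 with 25 of 30 above 0, and trehalose and glycogen genes a median of 0.14 with 19 of 21 above 0. These medians also moved with single libraries. Without replicate 1 of epl1Δ sds3Δ they were 0.08, 0.09 and 0.03 for heat shock, oxidative stress and trehalose and glycogen. Without replicate 3 of epl1Δ sds3Δ the first and last were 0.20 and 0.27, and without replicate 3 of esa1Δ sds3Δ they were 0.07 and 0.07. Without replicate 1 of esa1Δ sds3Δ the trehalose and glycogen median was 0.26. The mean level of trehalose and glycogen genes too rose from replicate 1 to 3 in both groups.

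**Figure D5:**
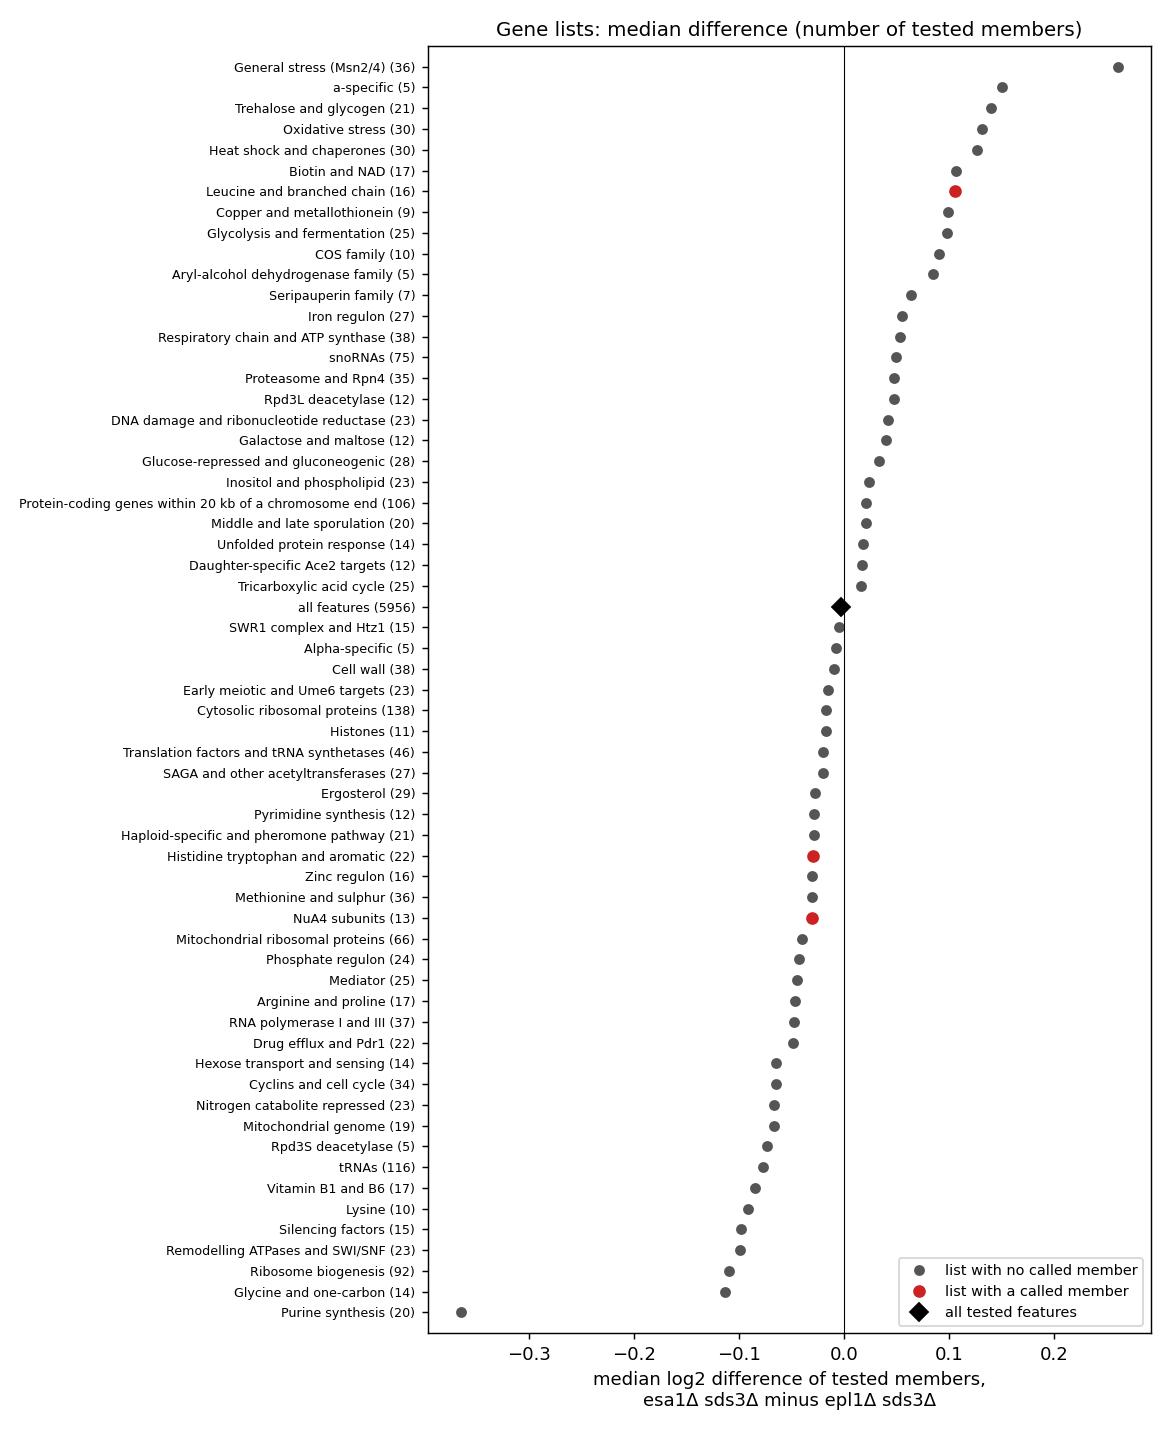
Median log2 difference of the tested members of each of 60 gene lists, esa1Δ sds3Δ minus epl1Δ sds3Δ (x axis), 1 list per row with its number of tested members; the diamond is all 5956 features and red points are lists with a called member. Purine synthesis at -0.36 and general stress at 0.26 are the lists beyond 0.2 in either direction.

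Of the 60 lists, 57 had no called member and 57 had a median within 0.15 of 0. Only 0.185% of all features were called, so a list without a called member says little by itself. Several of them differed much from wild type in both groups. Ribosome biogenesis genes had a median of 1.09 above wild type in epl1Δ sds3Δ and 1.01 in esa1Δ sds3Δ, and between these groups a median of -0.11, with 81 of 92 below 0 and none called. That median was -0.03 without replicate 1 of epl1Δ sds3Δ, -0.18 without its replicate 3 and -0.05 without replicate 3 of esa1Δ sds3Δ. The mean level of ribosome biogenesis genes fell from replicate 1 to 3 in both groups. Cytosolic ribosomal protein genes were at 0.67 and 0.65 over wild type and -0.02 between the groups, with 134 of 138 intervals within 0.5. Early meiotic genes, which Ume6 represses through Rpd3L, had medians of 1.05 and 0.96 over wild type and -0.02 between the groups, with none of 23 called. For the phosphate regulon the medians were 0.57 and 0.59 over wild type and -0.04 between the groups, and for the subtelomeric COS family they were -1.21 and -1.10 against wild type and 0.09 between the groups. Protein-coding genes within 20 kb of a chromosome end had a median of 0.02 between the groups, with none of 106 called. The called gene AQY3 lies just beyond that distance, on chromosome VI.

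The 10 genes farthest above wild type in both groups and the 10 farthest below, were chosen after their values were seen. Being far from wild type in both groups favours genes at which the groups are alike, so that their values are a description. Differences between the groups ran from -0.43 to 0.71 among the former and from -0.43 to 0.43 among the latter. PHO5, the secreted acid phosphatase, was at 142 ± 48.6 RPKM in wild type, 1261 ± 146 in the epl1Δ sds3Δ libraries and 1370 ± 128 in the esa1Δ sds3Δ libraries (SD, n = 3), with an interval of -0.33 to 0.57 for the difference. ZPS1, a zinc-responsive surface protein gene, was at 907 ± 205, 88.6 ± 12.6 and 66.4 ± 14.7 RPKM in the same order.

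Chromosome by chromosome the medians were close to 0, from -0.02 on chromosome I to 0.02 on chromosome III, with -0.07 over 32 mitochondrial features. Running medians over 20 neighbouring genes stayed between -0.12, on chromosome XIV from ESBP6 to POL1, and 0.13, on chromosome X from TMH11 to SOD1.

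The triple-label libraries, which lack both genes, entered the fit that called the 11 genes through the level filter and the shared estimate of spread, but not through the difference tested. Leaving out ESA1, EPL1 and HIS3, their mean was nearer to esa1Δ sds3Δ for YHK8, APD1, YBR137W and AQY3. It was nearer to epl1Δ sds3Δ for ATG19, LEU1, LEU2 and YSA1. Over all tested features the triple mean was nearer to esa1Δ sds3Δ for 2890 (48.5%) and nearer to epl1Δ sds3Δ for 3066 (51.5%). The triple label differed from epl1Δ sds3Δ at 8 features (0.134%) and from esa1Δ sds3Δ at 3 (0.0504%) in limma's test, comparisons that share libraries with the one described here. Wild type was nearer to esa1Δ sds3Δ for 6 of the 8 genes, all but YBR137W and AQY3.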

How the data were processed

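The deposited values were RPKM per gene, 1 per feature and library, and the authors' counting program is not given in the sources used here. Per the submitters' processing notes, cutadapt, STAR and Bowtie 0.12.2 were used, with builds given as sacCer3 and mm8. Libraries were strand-specific and depleted of rRNA, per the labels' protocols, and the strand setting of counting is not given, so values of overlapping and antisense genes are uncertain. Read numbers were recovered from the RPKM steps, and 99.7% of the values under 5000 reads were whole within 0.01 read. RPKM was divided by median-of-ratios factors (0.914 to 0.987 in the 6 libraries compared) and tested as log2(RPKM + 1), which understates changes of low genes. The test was limma 3.58.1 in R 4.3.3, with all 12 libraries, 4 group means, a mean-variance trend, no replicate block, two-sided p-values and Benjamini-Hochberg adjustment over 5956 features. Printed RPKM are scaled, and intervals are 95% intervals from this fit. The steps were tested on simulated counts, with the scatter set alike for every gene and no shift between wild type and epl1Δ sds3Δ. These settings differ from the data, so the simulation checks the code and not the power of the fit here. Positions and promoters came from the R64 RefSeq genome (SGD annotation), the assembly of sacCer3. Of the 7126 features, 6048 were matched by locus tag and 114 by name.

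Members and gene lists were chosen with earlier results of these data known. Genes were named by rule: the deleted and marker genes and their neighbours, up to 15 called genes per direction, up to 4 called members of a list with any needed to say which were not called, and the mating-type genes. Alternatives tried were other scalings, pseudocounts and level filters, the 6 libraries alone, a replicate block, voom, and leaving out each library.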

Additional observations from a re-analysis of the deposited data

How the results depend on the processing

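The number of called genes was 11 with RPKM as deposited, 12 with quantile normalization, 11 and 12 with pseudocounts of 0.1 and 5, 12 with no filter, 8 when the mean had to reach 10 RPKM, 14 in the 6 libraries alone, 14 by voom and 7 to 8 with 1 library left out. Under the filter at 10 RPKM the genes lower in esa1Δ sds3Δ numbered 2 instead of 4, since ESA1 and YHK8, with EPL1 in the other direction, were no longer tested, and called differences of at least 1 log2 unit numbered 4 instead of 7. With a pseudocount of 5, which shrinks low genes, these also numbered 4. In the 6 libraries alone 7 genes were lower, with ADE1, ADE13, ADE17 and SNZ1 gained and YBR137W lost. Leaving out 1 library gave 5 to 6 higher, 2 to 3 lower and 6 to 7 of at least 1 log2 unit, from fewer samples. ESA1, EPL1, HIS3, ATG19, APD1, LEU1 and YHK8 kept their call in every setting that tested them (14 for ESA1, EPL1 and YHK8 and 15 for the others), and none of the 35 genes and lists recomputed had a value in the opposite direction, except the ribosomal protein median, which ran from -0.06 to 0.01 around 0.

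Same-numbered libraries had correlations of 0.06, -0.05 and 0.17 between their deviations from the group means, and the main fit did not pair them. Pairs of unlike number ran from -0.17 to 0.11. These correlations over all features cannot exclude structure shared by number. The mean level of general stress genes and of trehalose and glycogen genes rose from replicate 1 to 3 in every group, and that of ribosome biogenesis genes fell. Whether same-numbered replicates share a batch was not tested. With the replicate number as a block 13 genes were called, the 11 together with YGR201C and YMR315W. Of 5956 intervals, 271 reached beyond 1 log2 unit, most often at a mean of 1 to 10 RPKM. The part of depth in this was not tested.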

Other observations

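Besides the called genes, 22 features differed by at least 1 log2 unit without being called, and 16 of them were tRNA features, 18 having a mean under 10 RPKM. The asparagine tRNA feature tN(GUU)O2 was at a mean of 0.902 RPKM in the epl1Δ sds3Δ libraries and 6.90 in the esa1Δ sds3Δ libraries (2.22, limma's adjusted p 0.511). The serine tRNA tS(GCU)F was at 3.86 and 0.494 (-1.82, limma's adjusted p 0.149). Of the 116 tested tRNA features 54 were above 0 and 62 below, with a median of -0.08 and none called. Their differences were poorly measured: the interval lay within 1 log2 unit of 0 for 18 of the 116, against 95.4% of all features. Box C/D and H/ACA snoRNAs, which guide rRNA modification, were above 0 for 51 of 75, with a median of 0.05 and none called, after medians of 1.05 and 1.01 over wild type in epl1Δ sds3Δ and esa1Δ sds3Δ. ISU2, a scaffold for iron-sulphur clusters, was at 6.59, 5.40 and 3.73 RPKM in the first group and 8.92, 8.94 and 10.3 in the second (0.76, limma's adjusted p 0.378).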
